A study of Homo sapiens with 2 samples.

Results

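The 10 genes followed here answer transforming growth factor beta (TGF-beta) or bone morphogenetic proteins (BMPs). They were measured in the MIA PaCa-2 line, derived from a human pancreatic cancer, with a guide against TPST2 (sgTPST2) or a guide against GFP (sgGFP, the control). TPST2 is one of the enzymes that add sulfate to tyrosines of proteins passing through the Golgi. The genes were taken by name, with earlier results of these data known, so their directions are a description: PMEPA1, LTBP2, TGFBI, SMAD7 and SKIL as 5 TGF-beta targets, and BAMBI, ID1, ID2, ID3 and SMAD6 as 5 BMP targets. All 10 were found, among 58698 genes of the table. The labels give sgTPST2 the genotype TPST2 KD and sgGFP the genotype WT, and the sources used here do not say how the guide acts or whether the cells are 1 clone. Total RNA was sequenced from 1 library per condition, so no difference below has a replicate check, and no test was made. The table names no unit, and levels were read as FPKM, the number of fragments for each kilobase of a transcript after scaling for the size of the library; the columns sum to 1.001e+06 in sgTPST2 and 1.010e+06 in sgGFP, so a scaling to a common sum, as in TPM, is possible too.

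TGF-beta ligands bind a type II receptor, TGFBR2, which activates the type I receptor TGFBR1. The receptors phosphorylate SMAD2 and SMAD3, which enter the nucleus with SMAD4. BMPs act through other receptors on SMAD1, SMAD5 and SMAD9, again with SMAD4. Both branches switch on their own inhibitors, which is why several of the 10 genes are brakes on the pathway. In pancreatic cancer the TGF-beta branch is known for losses of SMAD4 and of receptors, and for its part in the change of epithelial cells towards a mesenchymal state.

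TPST2 itself was lower in the culture that carried its guide, at 1.92 FPKM in sgTPST2 and 8.46 FPKM in sgGFP, and its paralogue TPST1 stood at 16.2 and 14.2 FPKM in sgTPST2 and sgGFP. From the steps between low values, a level of 1 FPKM corresponded to about 47.6 fragments for each kb in sgTPST2 and 42.0 in sgGFP. Of 5 ductal carcinoma markers, 3 (KRT8, KRT18 and KRT19) reached 1 FPKM, EPCAM was listed at 0 in both libraries, and the 5 summed to 139.8 FPKM in sgTPST2 and 1283 FPKM in sgGFP. The part of these lower epithelial genes in the results below was not tested. Of the markers of other cell types, 1 of 5 for fibroblasts (COL3A1), 1 of 4 for endothelium (CDH5) and 1 of 3 for leukocytes (CD68) reached 1 FPKM, and 0 of 4 acinar and islet markers did. The fibroblast sum was 12.1 FPKM in sgTPST2 and 18.6 in sgGFP, the endothelial sum 0.282 and 3.1, and the leukocyte sum 1.51 and 3.42. Of these markers DCN, LUM, PECAM1, KDR and CD3E were listed at 0 in both libraries. PDGFRB, at 0.00377 FPKM in sgTPST2 and 0 in sgGFP, VWF, at 0.00482 and 0.176 FPKM, PTPRC, at 0 and 0.102 FPKM, and COL1A1, at 0.216 and 0.045 FPKM, were below 1 FPKM in both.

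The promoter windows of 3 genes are shown because PMEPA1 was the lowest and BAMBI the highest of the 10 relative to the control, and SMAD6 holds a palindromic SMAD element. Windows run from 250 bases before to 50 bases after a RefSeq start site (GRCh38.p14), 5′ to 3′ on the gene's strand. PMEPA1 (chr20:57711423-57711722, minus strand) has 4 RefSeq windows, of which that nearest the GENCODE start is given. BAMBI lies at chr10:28677271-28677570 and SMAD6 at chr15:66701986-66702285, both on the plus strand. Capitals mark matches, on either strand, to GTCTAGAC (the palindromic SMAD element), CAGAC (the SMAD box, read as GTCTG on the other strand) and GGCGCC (a GC-rich SMAD element found in BMP-responsive genes).
PMEPA1: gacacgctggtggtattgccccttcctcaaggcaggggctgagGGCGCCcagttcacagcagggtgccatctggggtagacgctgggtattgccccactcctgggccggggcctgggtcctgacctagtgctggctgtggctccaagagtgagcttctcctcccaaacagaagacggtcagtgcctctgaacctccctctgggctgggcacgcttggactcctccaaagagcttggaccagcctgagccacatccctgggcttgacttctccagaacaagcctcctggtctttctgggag
BAMBI: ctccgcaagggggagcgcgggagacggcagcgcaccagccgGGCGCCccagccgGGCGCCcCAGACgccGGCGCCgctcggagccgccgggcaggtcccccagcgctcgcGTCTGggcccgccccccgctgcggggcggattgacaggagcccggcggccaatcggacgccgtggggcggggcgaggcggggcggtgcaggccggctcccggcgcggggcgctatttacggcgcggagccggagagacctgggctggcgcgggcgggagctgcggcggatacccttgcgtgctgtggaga
SMAD6: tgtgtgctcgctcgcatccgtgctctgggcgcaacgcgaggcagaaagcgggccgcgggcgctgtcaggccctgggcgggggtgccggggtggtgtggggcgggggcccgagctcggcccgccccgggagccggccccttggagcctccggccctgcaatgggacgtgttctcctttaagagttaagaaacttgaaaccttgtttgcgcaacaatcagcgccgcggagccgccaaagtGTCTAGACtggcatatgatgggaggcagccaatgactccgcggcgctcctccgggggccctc

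GGCGCC and CAGAC each occurred both in genes lower and in genes higher in sgTPST2. The E-box CAGATG was in lower genes only, and GTCTAGAC in 1 higher gene. A link between motifs and direction was not tested. All 10 genes matched a RefSeq window, and 1 window per gene was counted. GTCTAGAC was found in 1 of the 10 genes, SMAD6, with its first base 12 bases before the start site, and 0.202% of all 35116 RefSeq windows hold it. GGCGCC was found in 4 of 5 TGF-beta targets (PMEPA1, LTBP2, TGFBI and SKIL) and in 1 of 5 BMP targets, BAMBI, which holds it 3 times, against 19.2% of all windows. CAGAC, which 45.3% of all windows hold, was in 3 TGF-beta targets and 2 BMP targets. Of the E-boxes searched, CACGTG was in 0 of the 10 (7.26% of all windows) and CAGATG in 2, PMEPA1 and LTBP2 (14.7%); the CAGATG match of LTBP2 overlaps its GGCGCC. For PMEPA1 these matches rest on the window chosen: its other 3 windows hold no GGCGCC, and each of them holds CAGAC, which the chosen one lacks. SMAD7 has 3 windows in all, and CAGAC was in the chosen window and in only 1 of the others. A match is a description of the letters, and elements outside these 300 bases were not searched.

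The TGF-beta targets were mostly lower and the BMP targets higher in sgTPST2. Differences are log2((sgTPST2 + 1)/(sgGFP + 1)), with 1 FPKM added to each level, and genes were counted where the higher level was at least 1 FPKM. Fold limits in all counts of genes are on this scale, whereas folds given with a counting interval are plain ratios of the levels. Of 4 TGF-beta targets that passed, 3 were at least 1.5-fold lower and 0 higher, with a median difference of -1.08. Of 5 BMP targets, 3 were at least 1.5-fold higher and 0 lower, with a median of 0.66. Among all 13420 genes that passed, 6.94% were 1.5-fold lower, 4.41% were 1.5-fold higher, and the median was 0.00. These shares also stand beside the counts of the pathway lists below. The 9 genes that passed reached 1 FPKM in both libraries, and SMAD7 stayed under it in both. At 2-fold, 2 TGF-beta targets (PMEPA1 and LTBP2) were lower, beside 2.93% of all genes, and 1 BMP target (BAMBI) was higher, beside 1.61%. TGFBI was 1.84-fold lower on this scale and 2.01-fold lower by plain ratio. At 1.2-fold, 3 TGF-beta targets were lower, beside 17.3% of all genes, and 1 TGF-beta target (SKIL) and 3 BMP targets were higher, beside 16.2%.

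**Figure D1:**
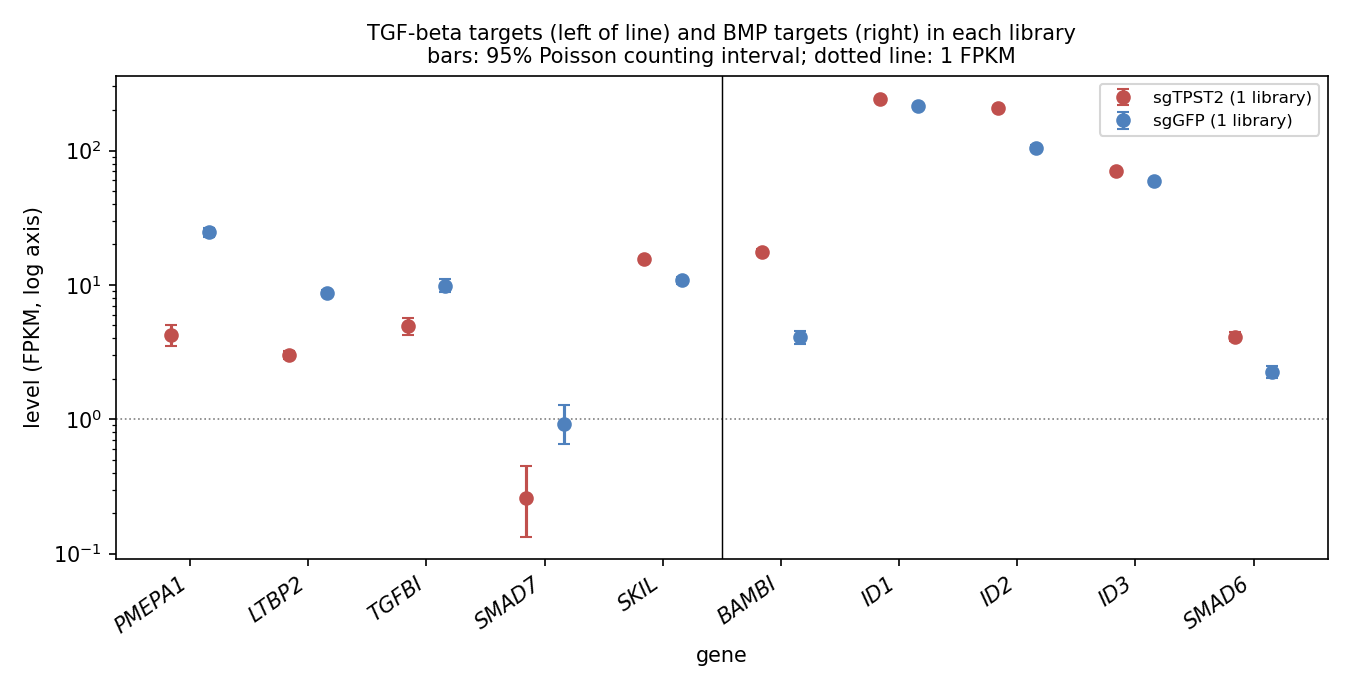
Level of each of the 10 response genes in FPKM on a log axis, in sgTPST2 (red, left of each pair) and sgGFP (blue, right), 1 library each; bars are 95% Poisson intervals that cover counting error only. PMEPA1, LTBP2, TGFBI and SMAD7 sit lower in sgTPST2, and SKIL and the 5 BMP targets sit higher.

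PMEPA1, a membrane protein that holds SMAD2 and SMAD3 away from the receptor and is itself switched on by TGF-beta, was farthest from its control among the TGF-beta targets. It stood at 4.22 FPKM in sgTPST2 and 24.6 FPKM in sgGFP, which is 5.83-fold lower (counting interval 4.81 to 7.11) and a log2 difference of -2.29. Of the 13420 genes, 84 (0.626%) were lower by as much or more, PMEPA1 included. Counting intervals here take the shortest coding transcript of the GENCODE basic set as the length, 800 bp for PMEPA1, so that they are wide rather than narrow. NKILA, a long non-coding RNA that starts within the PMEPA1 span on the opposite strand, stood at 0.122 FPKM in sgTPST2 and 0.834 FPKM in sgGFP. Whether the counting used strand is not stated in the labels. It is therefore not known whether reads of the 2 genes were kept apart where they overlap. The gene is at 57648392 to 57711536 of chromosome 20 (GRCh38, as are all coordinates here), and 29 other expressed coding genes within 5 Mb had a median difference of -0.04.

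LTBP2, a matrix protein of the latent TGF-beta binding family that attaches to fibrillin microfibrils, stood at 2.99 FPKM in sgTPST2 and 8.7 FPKM in sgGFP. It was 2.91-fold lower (2.68 to 3.16), with a log2 difference of -1.28. In the authors' deposited table LTBP2 has q = 0.0417 and is the 1 gene of the 10 at or under 0.05; 0.425% of the 18574 genes the authors tested are lower at that q and 0.0915% are higher. In the authors' deposited table PMEPA1 has q = 0.124, BAMBI q = 0.0714 and ID2 q = 0.355.

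TGFBI, a secreted matrix protein that binds integrins and is named for its induction by TGF-beta, stood at 4.92 FPKM in sgTPST2 and 9.89 FPKM in sgGFP. This is 2.01-fold lower (1.69 to 2.4), with a log2 difference of -0.88, and 3.72% of all genes that passed were as low or lower. The 66 coding genes around TGFBI on chromosome 5 had a median of 0.08. In the authors' deposited table TGFBI has q = 0.9997, also the q of SMAD7, SKIL, ID1, ID3 and SMAD6 there.

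SMAD7, the inhibitory SMAD that blocks TGF-beta receptors, was the lowest of the 10 genes in level, at 0.258 FPKM in sgTPST2 and 0.925 FPKM in sgGFP. With the shortest coding transcript (1152 bp) as the length, these levels rest on about 12 and 38 fragments in sgTPST2 and sgGFP. A longer transcript would give more. SMAD7 was 3.59-fold lower, with a counting interval of 1.84 to 7.55. On the scale with 1 FPKM added its log2 difference was only -0.61, since both levels lie below 1.

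SKIL, which encodes the nuclear SMAD repressor SnoN, went the other way. It stood at 15.5 FPKM in sgTPST2 and 10.9 FPKM in sgGFP, 1.43-fold higher (1.32 to 1.54), and its log2 difference of 0.47 is under the 1.5-fold line. The related repressor SKI was at 7.21 and 3.75 FPKM in sgTPST2 and sgGFP, with a log2 difference of 0.79. RNA of SKIL and SKI was thus higher in the culture in which RNA of PMEPA1 and SMAD7 was lower. No protein was measured here. The 5 TGF-beta targets summed to 27.86 FPKM in sgTPST2 and 54.99 FPKM in sgGFP.

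BAMBI, a pseudoreceptor without a kinase domain that dampens TGF-beta and BMP receptors, showed the largest difference of the BMP targets. It stood at 17.6 FPKM in sgTPST2 and 4.06 FPKM in sgGFP, 4.33-fold higher (3.82 to 4.93), with a log2 difference of 1.88. Of the 13420 genes, 55 (0.41%) were higher by as much or more. BAMBI lies on chromosome 10, at 28677342 to 28682939, where 17 coding genes within 5 Mb had a median of 0.18. It is also induced by TGF-beta, and counted with those targets it stands apart from the 3 that were lower.

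SMAD6, the inhibitory SMAD that acts mainly on the BMP branch, stood at 4.13 FPKM in sgTPST2 and 2.25 FPKM in sgGFP. It was 1.84-fold higher (1.61 to 2.09), with a log2 difference of 0.66. The inhibitory SMADs therefore lay on opposite sides of their control, SMAD6 above and SMAD7 below. SMAD3, a neighbour of SMAD6 on chromosome 15 (66702228 and 67063763 are the starts of SMAD6 and SMAD3), was on the other side too, at 14.99 FPKM in sgTPST2 and 24.5 FPKM in sgGFP. The 42 coding genes within 5 Mb of SMAD6 had a median of -0.06.

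The ID genes encode helix-loop-helix proteins without a DNA-binding region, which pair with E proteins and keep them off DNA. ID1 was the highest of the 10 genes, at 243 FPKM in sgTPST2 and 214 FPKM in sgGFP. ID2 stood at 207 FPKM in sgTPST2 and 105 FPKM in sgGFP, 1.97-fold higher (1.86 to 2.07). ID3 stood at 70.5 FPKM in sgTPST2 and 58.9 FPKM in sgGFP, and ID4 was listed at 0 in both libraries.

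The 3 expressed ID genes were not higher by the same amount. The log2 difference was 0.97 for ID2, 0.26 for ID3 and 0.18 for ID1, and 1.7%, 16.8% and 24.8% of all genes that passed were as high or higher. The ratio of ID2 to ID1 was 0.852 in sgTPST2 and 0.49 in sgGFP, while that of ID3 to ID1 was 0.291 and 0.275. ID2 made up 39.8% of the summed ID1, ID2 and ID3 level in sgTPST2 and 27.8% in sgGFP. Counting intervals of the ratio were 1.1 to 1.17 for ID1 and 1.14 to 1.26 for ID3, and they cover counting error only. ID2-AS1, which overlaps the first part of the GENCODE span of ID2 on the opposite strand, stood at 0.541 FPKM in sgTPST2 and 0.234 FPKM in sgGFP. Both levels were far below those of ID2. The RefSeq start of ID2 used for the promoter window lies beyond the end of ID2-AS1.

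**Figure D2:**
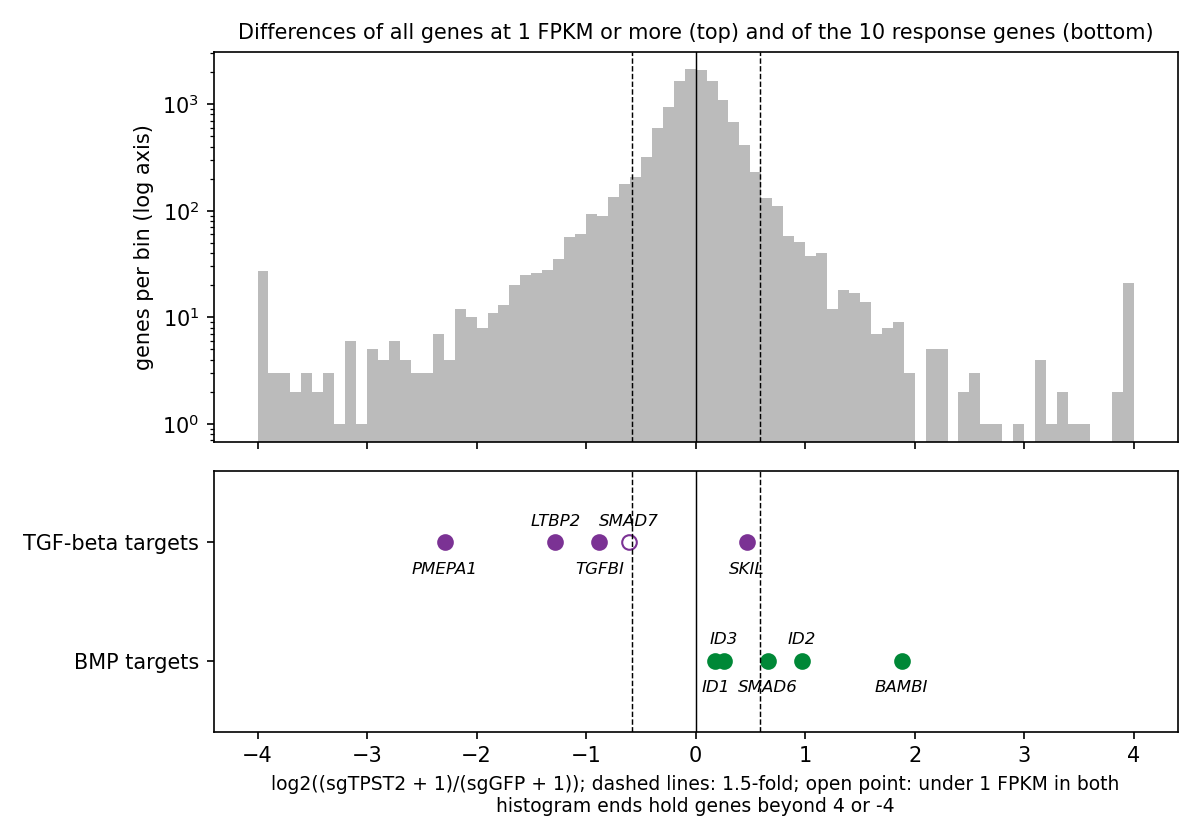
Top, number of genes (log axis) by log2 difference for the 13420 genes at 1 FPKM or more; bottom, the 10 response genes on the same axis, the open point (SMAD7) being under 1 FPKM in both libraries. Dashed lines mark 1.5-fold, and PMEPA1 at -2.29 and BAMBI at 1.88 lie farthest out on either side.

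The E proteins that ID proteins bind were close to their control. TCF3 stood at 94.3 FPKM in sgTPST2 and 92.3 FPKM in sgGFP, and TCF12 at 27.5 and 26.3 FPKM. The summed level of ID1, ID2 and ID3 was 4.27 times that of TCF3 and TCF12 in sgTPST2 and 3.19 times in sgGFP. Of 5 genes in the list of ID partners and other helix-loop-helix regulators that passed the filter, 3 were 1.5-fold lower and 0 higher, and the median was -0.59, or 0.03 over those at 5 FPKM or more. The repressor HES1 stood at 4.15 FPKM in sgTPST2 and 16.1 FPKM in sgGFP, a log2 difference of -1.74, and BHLHE41 at 0.057 and 2.22 FPKM, a log2 difference of -1.61. BHLHE41 lies on chromosome 12, where 23 coding genes within 5 Mb had a median of -1.07.

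The TGF-beta type II receptor was barely detected in either library. TGFBR2 was at 0.00939 FPKM in sgTPST2 and 0.107 FPKM in sgGFP, and the ratio of sgTPST2 to sgGFP was 0.088 (0.00997 to 0.362). These levels are about 2 and 20 fragments with the shortest coding transcript as the length. Its type I partner TGFBR1 was at 15.5 and 12.5 FPKM, and the co-receptor TGFBR3 (betaglycan) at 9.14 and 10.3 FPKM in sgTPST2 and sgGFP. The activin receptors ACVR1B, at 5.17 and 4.44 FPKM, and ACVR2A, at 2.69 and 3.68 FPKM, were present in both, while ACVR1C stood at 0.039 and 0.00269 FPKM in sgTPST2 and sgGFP. Of 8 TGF-beta and activin receptors 5 passed the filter, and 0 of them were 1.5-fold apart (median 0.18).

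The BMP receptors that passed the filter were also close to their control. BMPR1A stood at 21.7 FPKM in sgTPST2 and 20.2 FPKM in sgGFP, BMPR2 at 3.14 and 3.24 FPKM, and ACVR1 at 3.07 and 2.27 FPKM. The receptors ACVRL1, at 0.0423 FPKM in sgTPST2 and 0.273 FPKM in sgGFP, and BMPR1B, at 0.114 and 0.273 FPKM, were low in both libraries, and AMHR2 was listed at 0. The BMP co-receptor RGMB had a log2 difference of -0.54, short of 1.5-fold on the scale with 1 FPKM added. Its plain ratio of sgTPST2 to sgGFP was 0.664 (counting interval 0.601 to 0.732), which is 1.51-fold lower. Of 9 genes in this list 4 passed, and 0 were 1.5-fold apart on the scale with 1 FPKM added (median 0.03).

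**Figure D3:**
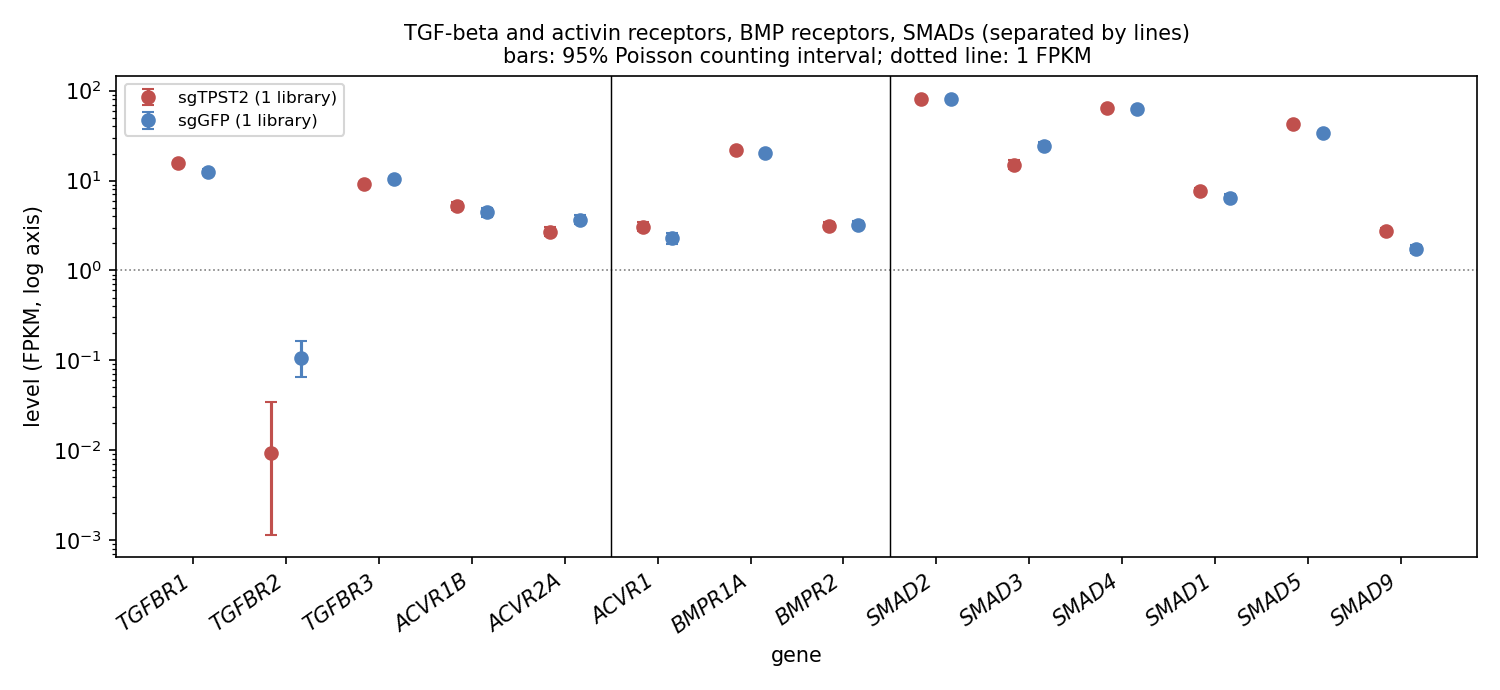
Level of receptors and SMADs in FPKM on a log axis, in sgTPST2 (red, left of each pair) and sgGFP (blue, right), 1 library each; bars are 95% Poisson counting intervals. Of the genes plotted, TGFBR2 is the one under 1 FPKM in both libraries, at 0.00939 and 0.107 FPKM, and SMAD3 is the SMAD that is lower in sgTPST2.

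All 6 signal-carrying SMADs passed the filter, with 1 at least 1.5-fold lower and 0 higher (median 0.13). SMAD3, which carries the TGF-beta signal, was the lower one, 1.63-fold below its control by ratio (1.4 to 1.9). SMAD2 stood at 81.6 FPKM in sgTPST2 and 81.2 FPKM in sgGFP, and the shared partner SMAD4 at 64.1 and 62.6 FPKM. The BMP-branch genes SMAD5, at 42.8 and 34.0 FPKM, SMAD1, at 7.7 and 6.47 FPKM, and SMAD9, at 2.76 and 1.72 FPKM, were on the higher side in sgTPST2. SMAD9 is itself a BMP target.

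Ligands were scarce. Of 11 TGF-beta and activin ligands 2 passed, TGFB3 and GDF11, and 0 were 1.5-fold apart. TGFB1 stood at 0.858 FPKM in sgTPST2 and 0.708 FPKM in sgGFP. Of 17 BMP and GDF ligands 3 passed, with 1 lower, GDF15, at 0.492 FPKM in sgTPST2 and 2.48 FPKM in sgGFP (named after its values were seen). BMP7 was the ligand with the highest level, at 12.9 FPKM in sgTPST2 and 16.9 FPKM in sgGFP. The BMP antagonist NOG (noggin) stood at 9.05 and 13.4 FPKM, and 0 of the 6 extracellular antagonists that passed, of 22, were 1.5-fold apart (median -0.11).

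Of 13 intracellular inhibitors and regulators, all of which passed, 1 was 1.5-fold higher and 2 were lower (median -0.04). Among all genes that passed, 4.41% were that much higher and 6.94% that much lower. The higher one was SKI. The lower ones were the ubiquitin ligases NEDD4L, at 5.05 FPKM in sgTPST2 and 10.5 FPKM in sgGFP, and SMURF1, at 8.07 and 13.1 FPKM, both of which help to remove SMADs or receptors. Of 12 genes of the latent complex and its activation 5 passed and 0 were 1.5-fold apart. ITGAV, the alpha subunit of TGF-beta-activating integrins, stood at 39.02 FPKM in sgTPST2 and 27.1 FPKM in sgGFP. The integrin genes ITGB6 and ITGB8 of this list did not pass, and both were lower in sgTPST2. ITGB6 stood at 0 FPKM in sgTPST2 and 0.29 FPKM in sgGFP, and ITGB8 at 0.0805 and 0.259 FPKM.

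Other targets of each branch were more mixed than the 10 genes. Of 30 further TGF-beta targets 19 passed, with 5 at least 1.5-fold lower and 2 higher (median -0.08), beside 6.94% and 4.41% of all genes that passed. The collagen gene COL1A2 stood at 3.47 FPKM in sgTPST2 and 29.05 FPKM in sgGFP, whereas RUNX1 stood at 12.6 and 7.62 FPKM. CTGF, a target of TGF-beta and of YAP named after its values were seen, went against the lower ones, at 4.77 FPKM in sgTPST2 and 0.583 FPKM in sgGFP. Of 19 further BMP targets 8 passed, with 1 lower and 1 higher (median 0.37, or 0.02 over those at 5 FPKM or more). The homeobox gene MSX2 was the lower one, at 3.2 FPKM in sgTPST2 and 6.32 FPKM in sgGFP, and SNAI2 the higher one, at 21.7 and 0.211 FPKM. SNAI2 was counted here as a BMP target only. Whether BMPs, TGF-beta or another signal raise it in these cells was not tested. GATA2 stood at 52.8 FPKM in sgTPST2 and 35.7 FPKM in sgGFP.

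**Figure D4:**
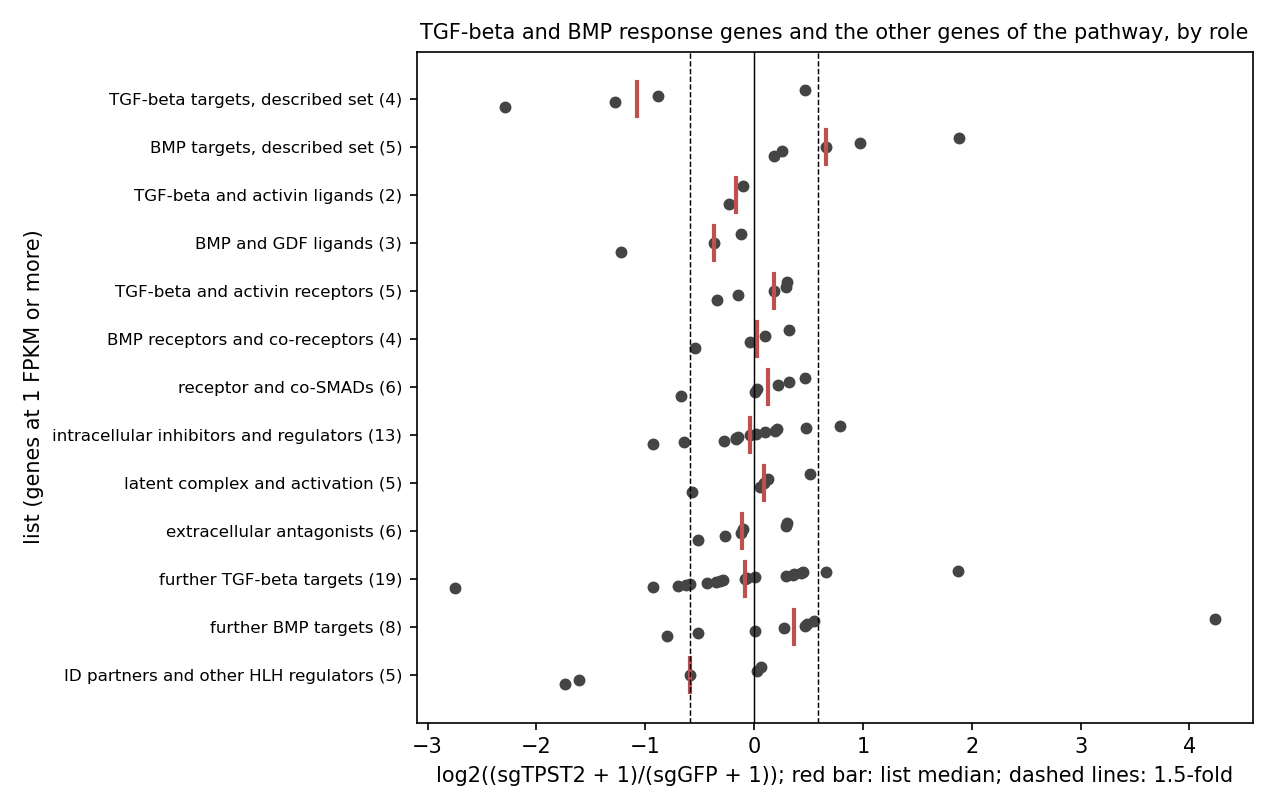
Log2 difference of each gene at 1 FPKM or more, for the 10 response genes (top rows) and 11 lists of other pathway genes. There is 1 point per gene in each list, and genes shared between lists, such as NOG and SMAD9, are plotted in each. Red bars are medians, dashed lines 1.5-fold, and the number in brackets is the genes plotted. The medians of the described TGF-beta and BMP targets are -1.08 and 0.66, and those of receptors and SMADs lie between 0.03 and 0.18.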

How the data were processed

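RNA of 2 MIA PaCa-2 cultures was measured, 1 per condition. Per the labels' protocols, the kit was one for stranded total RNA. Per the submitters' processing notes, STAR, Cuffdiff and the build hg38 were used; versions and any use of strand in counting are not given there. The deposited table holds 2 value columns, read as FPKM because Cuffdiff reports FPKM; per the file headers no unit is named, and the columns sum to 1.001e+06 in sgTPST2 and 1.010e+06 in sgGFP. It also holds the authors' p-value and q-value, an unused test-statistic score, and the authors' log2 fold change, which equals log2((sgTPST2 + 1)/(sgGFP + 1)) to within 2.1e-15. All 58698 gene identifiers are in GENCODE release 29 (GRCh38), the source of coordinates.

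From there, both values and the log2 difference (pseudocount 1 FPKM) were taken for genes with a higher value of at least 1 FPKM. The fragments behind a value were read from low values of single-transcript genes over 1500 bp, with step and length offset (170 bp in sgTPST2, 180 bp in sgGFP) fitted: 93.2% of 721 values in sgTPST2 and 93.5% of 764 in sgGFP lay within 0.1 of a whole number, where evenly spread values would give 20%, although the fit used these same values. Intervals are exact 95% Poisson intervals, or Clopper-Pearson intervals for ratios, and cover counting error only. No reads were recounted, no gene was tested, and no p-value was computed. Chromosomal surroundings are coding genes within 5 Mb that the authors tested and whose mean was 5 FPKM or more. The steps were tested on simulated data in Python 3.11.15.

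The 10 genes and the 11 pathway lists were chosen with earlier results of these data known. Some genes, such as NOG and SMAD9, are shared between pathway lists and count in each. Named from each list were up to 4 genes with the largest absolute difference at 5 FPKM or more and status OK (not all of them are described), plus TGFBR2 as the type II receptor of TGF-beta and SMAD4 as the shared SMAD. ACVR2A, ACVR1C, BMPR2, ACVR1, ACVRL1, BMPR1B, AMHR2, BHLHE41, SMAD2, SMAD9, TGFB1, TGFB3, GDF11, ITGB6, ITGB8, ID4 and the genes overlapping PMEPA1 and ID2 were named after their values were seen. One planned leukocyte marker is not reported here. For repeated symbols the more highly expressed entry was kept. Protein comparisons were planned but no protein sequences were used here. Alternatives tried were other pseudocounts, scalings, filters, fold limits and assignments of BAMBI and SMAD7.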

Additional observations from a re-analysis of the deposited data

How the results depend on the processing

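No paired analysis was possible because there is 1 library of each kind, which also means that none could be left out. Equal upper quartiles, equal sums and centring on the median gene turned the direction of none of the 10 genes. The other alternatives could not turn it. A pseudocount added to both levels keeps their order, and filters, fold limits, assignments and leaving genes out do not change a gene's own difference. With a pseudocount of 0.1 the median of the BMP targets was 0.85 and its gap to that of the TGF-beta targets 2.1 (1.74 as reported). With no pseudocount the medians were -1.27 and 0.88 and the gap 2.15. Without a filter on low values, which brings in SMAD7, the TGF-beta median was -0.88. At 2-fold, 1 BMP target (BAMBI) was higher, and at 1.2-fold 1 TGF-beta target (SKIL) was. With BAMBI counted as a TGF-beta target, 1 such target was higher, the TGF-beta median was -0.88, the BMP median 0.46 and the gap 1.34. Leaving out each gene in turn gave -1.28 to -0.88 for the TGF-beta median, 0.46 to 0.81 for the BMP median and 1.54 to 1.94 for the gap; genes are not replicates. Equal upper quartiles, equal sums and centring on the median gene left the counts of the 10 genes as they were and shifted the median difference of all genes to at most 0.0115. The median of ID partners and other helix-loop-helix regulators was -0.59 as reported and 0.03 at 5 FPKM or more. Depth limits SMAD7, which rests on about 12 fragments in sgTPST2 and 38 in sgGFP, and TGFBR2, on about 2 and 20. These numbers take the shortest coding transcript as the length and would be larger with a longer one.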
